A study of Mus musculus with 18 samples.

Results

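Expression of 8 genes of the mitochondrial membranes was followed through p53 restoration in small cell lung cancer (SCLC) cells. The genes were taken by name, with no threshold on their values, and with earlier results of these data known. They are the adenine nucleotide carriers Slc25a4 and Slc25a5, the voltage-dependent anion channels Vdac1, Vdac2 and Vdac3, the translocator protein gene Tspo, and Mcu and Micu2 of the mitochondrial calcium uniporter. They are 8 of the 25239 genes in the table, and all of them were among the 12828 genes tested.

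RNA was sequenced from 3 mouse cell lines of the class called Type D (4711-1, 4711-18 and 4716-11), giving 18 samples in 6 groups of 3. The lines were grown from individual lung tumors of mice homozygous for the floxed alleles Rb1 flox/flox and Rbl2 flox/flox and for the gene-trap allele Trp53 XTR/XTR, which also carried Rosa26 FlpO-ER. In these mice adenoviral Cre under a CMV promoter had removed Rb1 and Rbl2 and switched off p53. All groups therefore lacked Rb1 and Rbl2, and Control cells, given vehicle, also lacked p53. Restored cells were given 500 nM 4-OHT for 72 h, which activates the Flp recombinase and returns p53. Before treatment each line had been selected for a lentiviral Cas9 vector carrying sgBgal, the control sgRNA, or 1 of the Ppia sgRNAs, sgPpia#3.2 against exon 3 and sgPpia#4.1 against exon 4. Ppia encodes cyclophilin A, and these selected populations kept some of the protein. The replicate was the cell line, with 1 sample per line and group. Whether 4711-1 and 4711-18 came from the same mouse was not given in the sources used here.

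The outer mitochondrial membrane is crossed through the VDACs, which let small metabolites and ions pass. The inner membrane is sealed, and the adenine nucleotide carriers exchange ADP for ATP across it. MCU forms the channel through which calcium enters the matrix, MICU2 helps to gate it, and MCUB is a paralog of MCU that lowers its activity. The permeability transition is the opening of a large inner membrane pore when the matrix is loaded with calcium. Cyclophilin D, encoded by Ppif and bound by cyclosporin A, favors this opening. The carriers, the VDACs and TSPO have each been proposed as parts or regulators of the pore, and the ATP synthase has been proposed as its core. The comparisons ask whether transcripts of these 8 genes changed with p53 and whether they differed with the Ppia sgRNAs.

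Promoter sequences are shown for the adenine nucleotide carriers, whose transcripts are compared as a pair, and for Mcu, because Slc25a5 and Mcu were the 2 genes called lower after p53 restoration without a block (defined beside their values). Of the 8 genes, 5 matched the RefSeq promoter table (GRCm38.p6), namely Slc25a4, Slc25a5, Mcu, Micu2 and Vdac1. Each sequence is the 250 bases before the annotated start, written on the strand of the gene, with motif matches in capitals. The windows are chr8:46211063-46211312 on the minus strand for Slc25a4, chrX:36795347-36795596 on the plus strand for Slc25a5 and chr10:59616693-59616942 on the minus strand for Mcu.
Slc25a4: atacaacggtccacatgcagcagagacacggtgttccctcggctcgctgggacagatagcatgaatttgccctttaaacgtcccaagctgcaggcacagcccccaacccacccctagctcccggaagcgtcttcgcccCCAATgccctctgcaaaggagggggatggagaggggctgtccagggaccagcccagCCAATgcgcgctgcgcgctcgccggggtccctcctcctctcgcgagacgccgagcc
Slc25a5: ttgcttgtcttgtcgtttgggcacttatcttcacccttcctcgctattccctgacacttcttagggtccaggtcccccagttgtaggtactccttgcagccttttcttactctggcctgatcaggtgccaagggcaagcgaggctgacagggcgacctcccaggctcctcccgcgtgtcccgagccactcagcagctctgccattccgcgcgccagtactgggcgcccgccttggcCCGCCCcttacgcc
Mcu: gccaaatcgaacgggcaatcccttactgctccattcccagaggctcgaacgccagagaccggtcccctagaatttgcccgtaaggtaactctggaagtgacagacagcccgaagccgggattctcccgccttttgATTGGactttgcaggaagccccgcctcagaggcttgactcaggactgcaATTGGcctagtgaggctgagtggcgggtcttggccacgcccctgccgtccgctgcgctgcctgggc

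The motifs searched were the CCAAT box (CCAAT), the GC box (GGGCGG), the E-box (CACGTG), the CHR element (TTTGAA) and an E2F site (TTTCGCG) on both strands, the TATA box (TATAA) on the strand of the gene, and the p53 half-site on both strands. The Slc25a4 window held 2 CCAAT boxes, at -112 to -108 and -56 to -52 from the start. The Mcu window also held 2, on the opposite strand and so printed as their reverse complement, at -115 to -111 and -66 to -62. The Slc25a5 window held none, and its 1 match was a GC box on the opposite strand at -14 to -9. The CCAAT box was present in 33.8% and the GC box in 32.7% of all 32851 promoter windows of this length. None of the 3 windows held the TATA box (16.0% of all windows), the E-box (6.02%), the CHR element (16.0%), the E2F site (0.703%) or the p53 half-site (7.13%). These matches are letters in a window, and no binding was measured here.

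The design was visible in the libraries. Trp53 was listed at 5.45 to 8.41 TPM in the 9 Control samples and at 181 to 236 TPM in the 9 Restored samples, and the p53 target Cdkn1a went from 99.4 to 369 TPM up to 1565 to 3806 TPM. Ppia was lower with sgPpia#3.2 than with sgBgal in 3 of 3 lines, by a mean log2 difference of -1.51 in Control cells (limma, adjusted p = 0.472; 0.0015 with the cell line as a block), and by -0.61 with sgPpia#4.1 (adjusted p = 1 in both fits). The sgPpia#3.2 Control library of 4711-18 stood apart, where Cdkn1a reached 369 TPM while the other 8 Controls lay between 99.4 and 171 TPM, and where Trp53 was the lowest of all. Of 7 neuroendocrine markers 3, with Calca and Chga among them, were under 1 TPM in all samples, and the summed markers ranged from 15.5 to 37.2 TPM. Markers of other cell types summed to 0.694 to 4.37 TPM without Cd68, a lysosomal gene of macrophages, which was 2.0 to 7.13 TPM in Control and 21.3 to 39.8 TPM in Restored samples. The part of these differences in the results was not tested.

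All 8 genes were expressed in every sample. Values are TPM, transcript abundances scaled for transcript length and for the sample total, so that levels of different genes can be set side by side. Over the 18 samples Tspo had the highest mean, 1523 TPM, followed by Slc25a4 with 1319, Slc25a5 with 709.8, the VDACs with 378, 361 and 341 for Vdac2, Vdac3 and Vdac1, Mcu with 147 and Micu2 with 55.4. Slc25a4 was above Slc25a5, Vdac1 above Mcu and Mcu above Micu2 in 18 of 18 samples. Tspo was above Slc25a4 in 13 of 18, Slc25a5 above Vdac2 in 13, Vdac3 above Vdac1 in 14, and Vdac2 above Vdac3 in 11, so these neighbors changed places between samples. Slc25a4 had the highest mean TPM among all genes named Slc25a in the table, with the phosphate carrier Slc25a3 next at 921 TPM and Slc25a5 after it. As bulk RNA was measured, less of a transcript per cell and fewer cells holding it cannot be told apart.

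**Figure D1:**
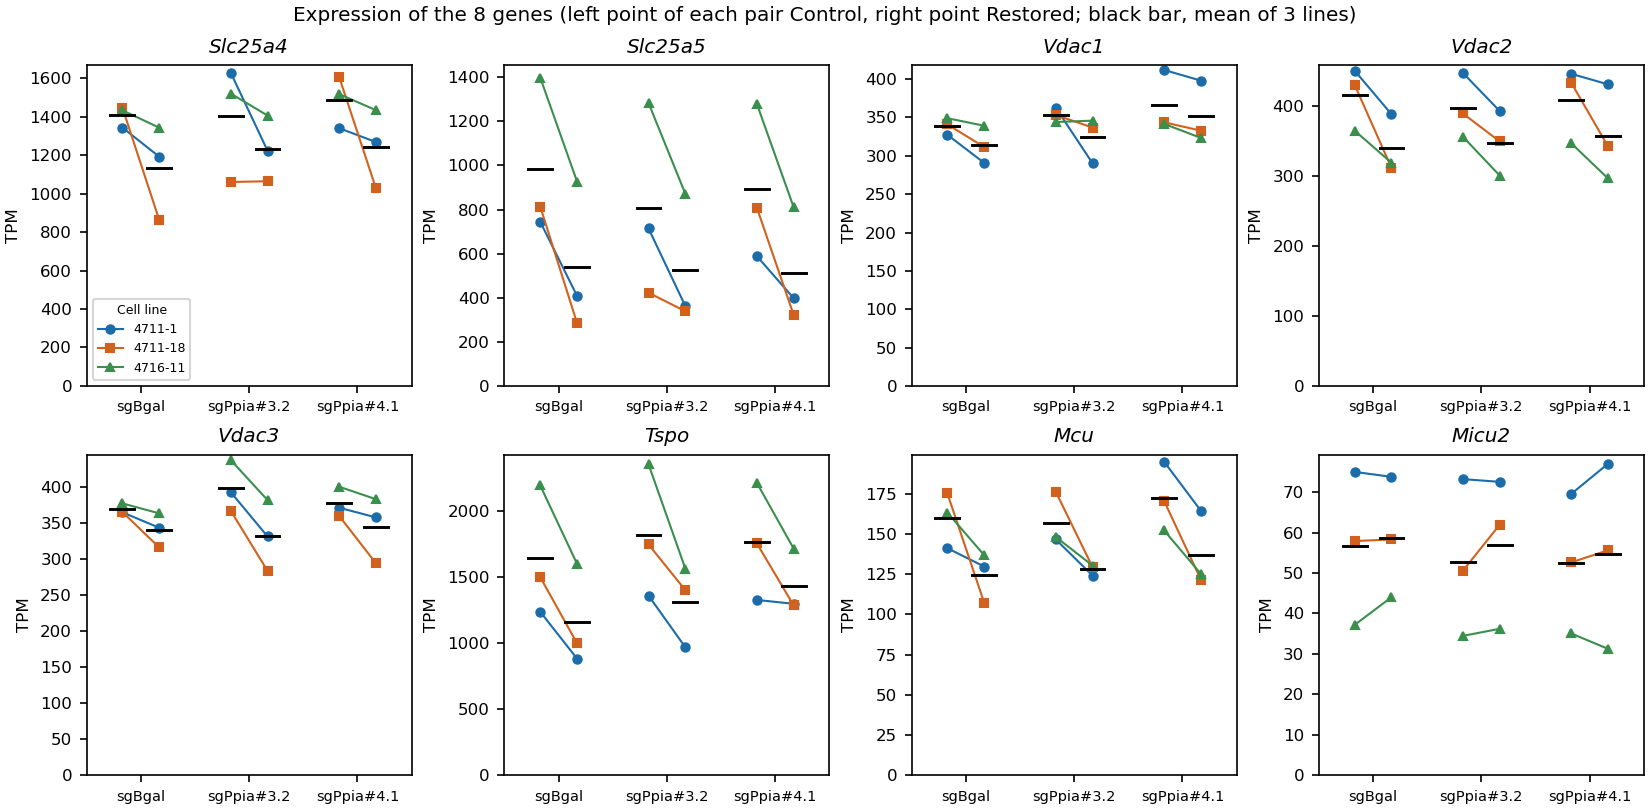
TPM of the 8 genes in all 18 samples, with the sgRNA on the x axis; within each pair of points the left is Control and the right Restored, colors and lines join samples of the same cell line, and black bars are means of 3 lines. Slc25a5, Vdac2, Vdac3, Tspo and Mcu are lower in the Restored sample of all 9 pairs, and the Micu2 points separate by cell line.

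Slc25a5, which encodes the carrier isoform that predominates in many dividing cells, had the largest change of the 8 genes on the log2 scale. With sgBgal it was 745, 813 and 1399 TPM in Control and 408, 285 and 927 TPM in Restored samples of 4711-1, 4711-18 and 4716-11. With sgPpia#3.2 it went from 714, 423 and 1283 TPM to 362, 339 and 871 TPM, and with sgPpia#4.1 from 589, 809 and 1279.5 TPM to 397.8, 322 and 811 TPM. Every Restored sample lay below its own Control, and within each line the 3 Control and 3 Restored values did not overlap, but 4716-11 was the highest line throughout, and 2 of its 3 Restored samples exceeded all Controls of the other lines. Averaged over sgRNAs the log2 fold change was -0.82 ± 0.31 (SE), a ratio of 0.567 (limma, Benjamini-Hochberg adjusted p = 0.048 over all genes; a gene was called under 0.05). In the single sgRNA groups it came to -0.99, -0.62 and -0.85, in the same order, with adjusted p of 0.246, 0.534 and 0.366. When the fit also held a term for each cell line (the block), which compares samples within a line, the 3 changes were called, with adjusted p of 0.0018, 0.028 and 0.0053. Without the sgPpia#3.2 Control library of 4711-18, which stood apart, the change with that sgRNA was -1.01 with no block. That fit sets 2 Control lines against 3 Restored lines. The averaged call was lost without 4711-1 (adjusted p = 0.211) and without 4711-18 (0.20), both with 6 samples per state and log2 fold changes of -0.83 and -0.70. It was also lost with a pseudocount of 0.1 (adjusted p = 0.053) and with no filter on low values (0.091).

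Slc25a4 encodes the isoform best known from heart and skeletal muscle. With sgBgal it was 1344, 1447 and 1434 TPM in Control and 1192, 863 and 1343 TPM in Restored samples, which did not overlap. With sgPpia#3.2 the Control values were 1629.8, 1061 and 1521 TPM and the Restored values 1224, 1065 and 1407 TPM. With sgPpia#4.1 they were 1341, 1609 and 1519 TPM and 1269, 1030.0 and 1435 TPM. The Restored sample was lower in 8 of 9 pairs, the exception being sgPpia#3.2 in 4711-18, whose Control library stood apart. The averaged log2 fold change was -0.26 ± 0.12 (adjusted p = 0.095), and it was called with the block (adjusted p = 0.021) and without that Control library (-0.32, adjusted p = 0.031; -0.30 and 0.0098 with the block).

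The share of Slc25a5 in the summed TPM of Slc25a4 and Slc25a5 does not depend on how a sample is scaled. This share was examined after the values had been seen. With sgBgal it was 35.7, 36 and 49.4% in Control and 25.5, 24.8 and 40.8% in Restored samples. With sgPpia#3.2 it went from 30.5, 28.5 and 45.8% to 22.8, 24.1 and 38.2%, and with sgPpia#4.1 from 30.5, 33.4 and 45.7% to 23.9, 23.8 and 36.1%. It was lower after restoration in 9 of 9 pairs, including the pair with the library that stood apart. Averaged over sgRNAs the change was -8.36 ± 0.21 percentage points (SD over 3 lines). Within single sgRNAs the lines differed more, with an SD of 1.31 for sgBgal, 1.85 for sgPpia#3.2 and 1.72 for sgPpia#4.1. An exact two-sided sign-flip test over the 3 lines gave p = 0.25, the smallest it can give.

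The 3 VDAC genes were close to each other in level and had smaller changes. With sgBgal, Vdac2, an outer membrane channel that also holds the death effector BAK, was 451, 431 and 365 TPM in Control and 389, 312 and 319 TPM in Restored samples. Vdac3, the least studied isoform, was 365, 366 and 378 TPM and 344, 316 and 364 TPM, and the groups did not overlap. Vdac1, the most studied isoform, was 327, 341 and 349 TPM and 291, 311 and 339 TPM. For Vdac2 and Vdac1 the sgBgal groups overlapped. Restored samples were lower than their Controls in 9 of 9 pairs for Vdac2 and Vdac3 and in 8 of 9 for Vdac1. The averaged log2 fold changes were -0.23 ± 0.10 for Vdac2 (adjusted p = 0.091), -0.17 ± 0.08 for Vdac3 (0.117) and -0.10 ± 0.08 for Vdac1 (0.338). With the block Vdac2 (adjusted p = 0.0026) and Vdac3 (0.013) were called and Vdac1 (0.220) was not. With the samples rescaled by median of ratios and no block all 3 were called, where 19% of all genes were called lower. Their values were then -0.43 for Vdac2 (adjusted p = 0.0042), -0.37 for Vdac3 (0.019) and -0.30 for Vdac1 (0.015). With the Ppia sgRNAs Vdac2 ranged from 347 to 447 TPM in Control and from 297 to 431 TPM in Restored samples, Vdac3 from 360.4 to 438 and from 284 to 383, and Vdac1 from 342 to 412 and from 290.3 to 398.0 TPM. Within the summed VDAC transcripts Vdac2 made up 36.9% of the 3 with sgBgal in Control and 34.1% in Restored samples, and its share was lower in 6 of 9 pairs over all sgRNAs.

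Tspo encodes an outer membrane protein that binds cholesterol and benzodiazepine-like drugs. With sgBgal it was 1238, 1501 and 2195 TPM in Control and 883, 999 and 1601 TPM in Restored samples. With sgPpia#3.2 the values were 1361, 1748 and 2356 TPM and 969, 1402 and 1565 TPM. With sgPpia#4.1 they were 1328, 1757 and 2215 TPM and 1298, 1287 and 1717 TPM. All 9 Restored samples were below their Controls, and 4716-11 was the highest line in both states with each sgRNA. The averaged log2 fold change was -0.42 ± 0.17 (adjusted p = 0.067; 0.00013 with the block). With the block it was called with sgBgal (-0.51, adjusted p = 0.0043) and sgPpia#3.2 (-0.47, 0.0088), but not with sgPpia#4.1 (-0.28, 0.078).

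Mcu, the pore-forming subunit of the uniporter, was the other gene called without a block. With sgBgal it was 141, 175 and 163 TPM in Control and 129.7, 107 and 137 TPM in Restored samples, and with sgPpia#3.2 147, 176 and 148 TPM and 124, 129 and 130.4 TPM. With sgPpia#4.1 it was 195, 171 and 152 TPM and 164, 122 and 125 TPM. The groups did not overlap with sgBgal or sgPpia#3.2, and with sgPpia#4.1 the Restored sample of 4711-1 exceeded the Control of 4716-11. The averaged log2 fold change was -0.33 ± 0.09, a ratio of 0.797 (limma, adjusted p = 0.012; 0.0047 with the block), and by sgRNA it was -0.36, -0.29 and -0.34, none of them called in either fit. The averaged call was lost without 4711-18 (-0.22, adjusted p = 0.163) and without 4716-11 (-0.37, 0.076).

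Micu2, a gatekeeper of the uniporter, differed between the cell lines more than between the states. It was 69.6 to 77.0 TPM in 4711-1, 50.6 to 62.0 TPM in 4711-18 and 31.2 to 44.0 TPM in 4716-11, and these ranges did not overlap. Restored samples were higher than their Controls in 6 of 9 pairs, and the averaged log2 fold change was 0.07 ± 0.23 (adjusted p = 0.837; 0.334 with the block). With the samples rescaled by median of ratios it was -0.13 (adjusted p = 0.681), so its sign depended on the scaling.

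**Figure D2:**
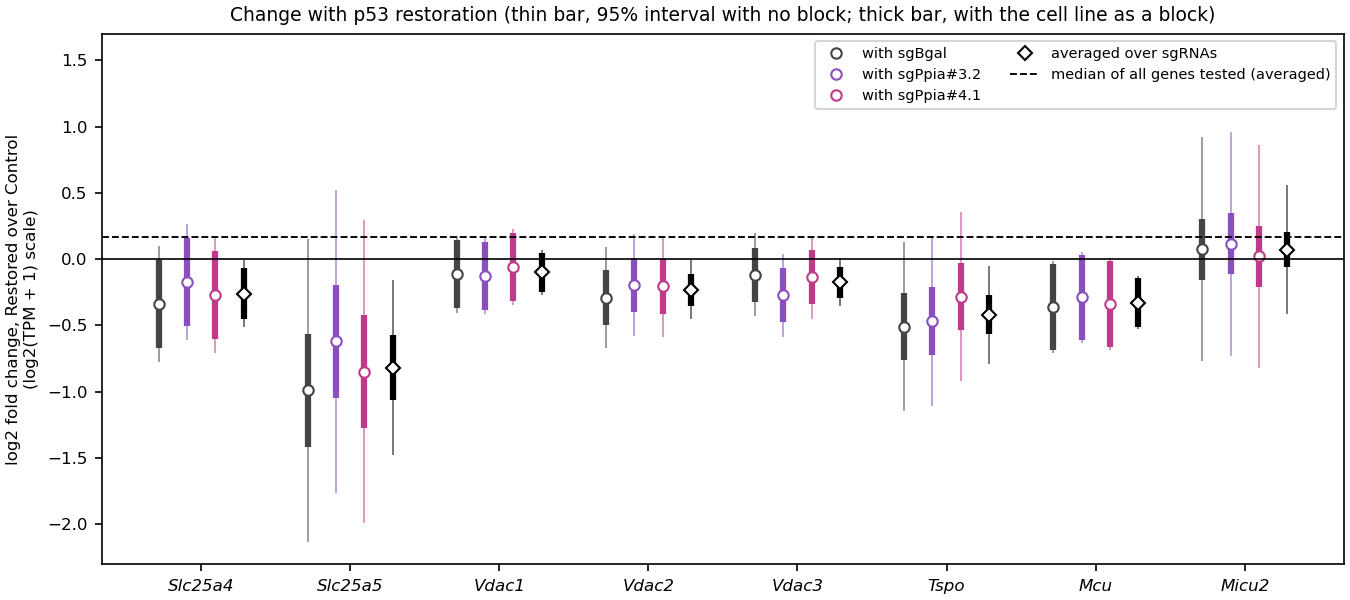
Log2 fold change of each gene, Restored over Control, on the log2(TPM + 1) scale, for each sgRNA (circles) and averaged (diamonds); thin bars are 95% intervals with no block and thick bars with the cell line as a block. The averaged values run from -0.82 for Slc25a5 to 0.07 for Micu2, and the dashed line is the median of all genes tested, 0.17.

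Without a block none of the 8 genes was called lower with any single sgRNA, where 3.96% of all genes were called lower with sgBgal, 2.39% with sgPpia#3.2 and 3.14% with sgPpia#4.1. At an unadjusted p under 0.05, 1, 0 and 0 of the 8 were lower, against 1036, 805 and 964 of all 12828 genes. With the cell line as a block 3 of 8 were called lower with sgBgal (Slc25a5, Vdac2 and Tspo), 3 with sgPpia#3.2 (Slc25a5, Vdac3 and Tspo) and 1 with sgPpia#4.1 (Slc25a5), against 12.0%, 8.86% and 10.8% of all genes. Averaged over sgRNAs 2 of 8 were called lower without a block and 6 of 8 with it, against 11.2% and 19.3% of all genes. None was called higher, against 27.9% and 44.1%. The median log2 fold change was -0.24 over the 8 genes and 0.17 over all genes tested, and it was below 0 in 7 of the 8. Rescaling by median of ratios set the median of all genes to -0.01 and that of the 8 genes to -0.45, with 7 of 8 called lower. It also turned the split over all genes from 3581 higher and 1432 lower to 2305 higher and 2438 lower.

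The Ppia sgRNAs were compared with sgBgal in the same state, and both were set against the same sgBgal libraries. In Control cells and in Restored cells none of the 8 genes was called with either sgRNA. Without a block 0 of the 12828 genes were called in any of these 4 comparisons (limma). That fit leaves the differences between lines in its error, and it did not call Ppia either. Its lack of calls therefore cannot show that these sgRNAs had no effect. At an unadjusted p under 0.05, 311 genes differed with sgPpia#3.2 and 27 with sgPpia#4.1 in Control cells, and 154 and 68 in Restored cells, with none of the 8 among them. With the block 0.0156% of all genes were called with sgPpia#3.2 in Control and 0.00780% in Restored cells, again none of the 8. These calls were Ppia in both states and Muc1, which encodes a mucin, in Control cells (-1.08, adjusted p = 0.038), named after its value was seen. With sgPpia#4.1 and the block 0 genes were called. With the block 1628 genes in Control and 1108 in Restored cells had an unadjusted p under 0.05 with sgPpia#3.2, and 162 and 424 with sgPpia#4.1. The largest value was that of Slc25a5 with sgPpia#3.2 in Control cells, -0.38 on the log2 scale (95% interval -1.52 to 0.77), where the 3 lines gave -0.06, -0.94 and -0.12 and the library that stood apart supplied the lowest. Without line 4711-18 this difference was -0.092, and without that library alone it was -0.19 in the fit with the block. In the fit without a block it was then 0.02, but that fit sets 2 sgPpia#3.2 lines against all 3 sgBgal lines. In Restored cells Tspo was above sgBgal in 3 of 3 lines with sgPpia#4.1, by 0.34 (95% interval -0.30 to 0.98). With sgPpia#4.1 its adjusted p was 1, and 0.969 with the block, where the unadjusted p was 0.013.

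The response to p53 was also compared between sgRNAs. The interaction was called for 0 of the 12828 genes with either Ppia sgRNA, without a block (31 and 18 at an unadjusted p under 0.05) or with it (175 and 80). For Slc25a5 the response differed from that with sgBgal by 0.37 with sgPpia#3.2 (95% interval -1.25 to 1.99) and by 0.14 with sgPpia#4.1 (-1.48 to 1.76). With the block these intervals were -0.23 to 0.97 and -0.46 to 0.74. Without line 4711-18 the first difference was -0.039, and without the library that stood apart it was 0.18 with the block and -0.02 without it. Each of the 4 intervals includes 0, and those without a block also hold the differences between lines.

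**Figure D3:**
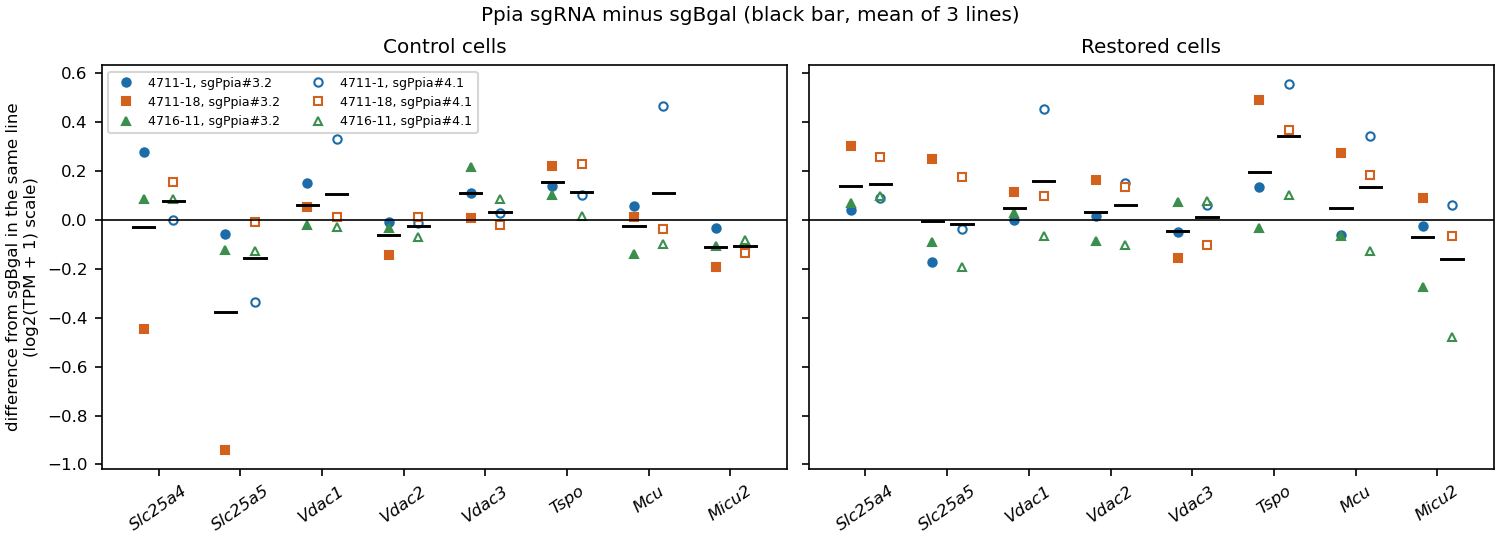
Difference of each gene between a Ppia sgRNA and sgBgal in the same cell line, on the log2(TPM + 1) scale, in Control (left) and Restored cells (right); filled symbols are sgPpia#3.2, open symbols sgPpia#4.1, and black bars are means of 3 lines. The symbols lie on both sides of 0 for most genes, and the lowest, -0.94, is Slc25a5 in the sgPpia#3.2 Control library of 4711-18.

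Among the other genes of the uniporter complex none was called lower. Of 7 listed, all tested, 1 was called higher and 0 lower, against 27.9% and 11.2% of all genes. This was Mcub, which went from 39.3, 23.4 and 46.9 TPM to 58.1, 50.6 and 70.1 TPM with sgBgal and had an averaged log2 fold change of 0.65 ± 0.18 (adjusted p = 0.0092). It was higher in 9 of 9 pairs, and the call was kept in the fit with the block (4.5e-05). Without 4716-11 no gene of this list was called, and after rescaling none was (Mcub 0.46). The regulator Smdt1 (-0.02), Micu3 (0.19), Mcur1 (0.06), Maip1 (0.16) and Slc25a23 (0.08) were not called, although Micu3 was with the block (adjusted p = 0.029).

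Ratios within a sample compare the uniporter subunits free of scaling. Like the carrier share, they were chosen after the values had been seen. With sgBgal, Mcub per Mcu was 0.279, 0.133 and 0.287 in Control and 0.448, 0.472 and 0.513 in Restored samples. Over all sgRNAs it ranged from 0.133 to 0.323 in the 9 Control samples, with the highest at 0.322762, and from 0.322805 to 0.513 in the 9 Restored samples. The ranges therefore only just failed to meet, but the ratio was higher in 9 of 9 pairs, by 0.211 ± 0.049 (SD over 3 lines). Micu2 per Mcu was higher in 9 of 9 pairs as well, with a mean of 0.334 in Control and 0.439 in Restored samples, but its ranges overlapped. Within 1 sgRNA, 3 against 3 samples cannot give an exact two-sided permutation p below 0.1, and Mcub per Mcu gave this p with each sgRNA.

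**Figure D4:**
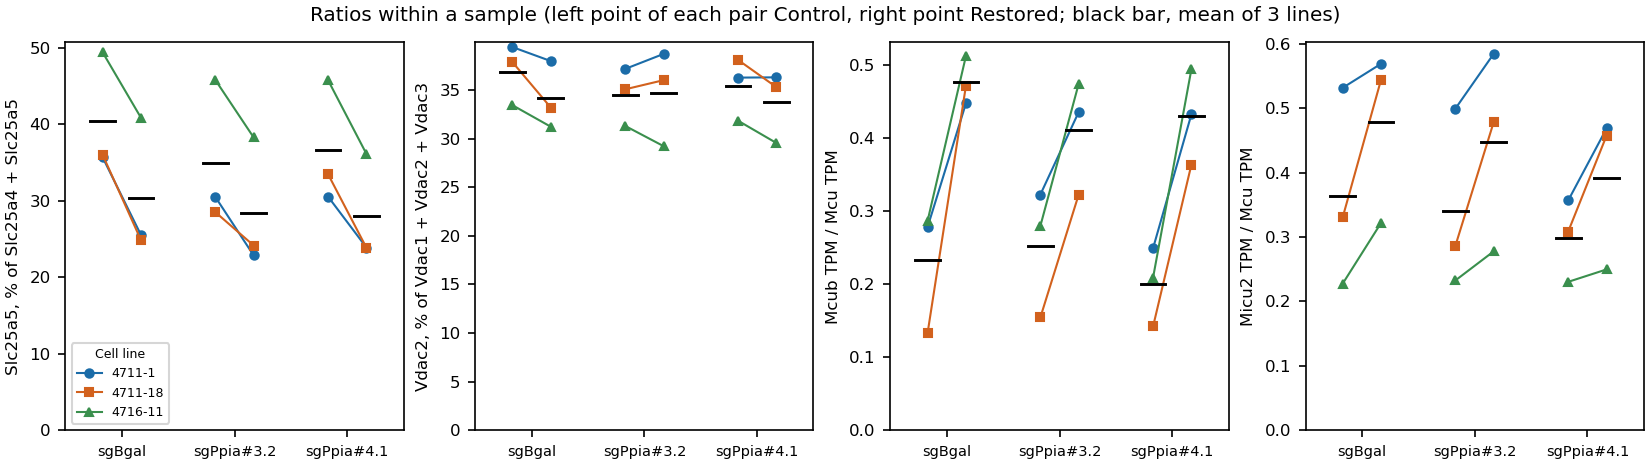
Scale-free ratios in all 18 samples, with the sgRNA on the x axis, left points Control and right points Restored, colors marking cell lines and black bars means of 3 lines. After restoration the Slc25a5 share is lower in all 9 pairs and the Vdac2 share in 6, while Mcub per Mcu and Micu2 per Mcu are higher in all 9.

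Proposed partners of the pore moved in both directions. Of 20 listed genes 19 were tested, and 4 were called higher and 4 lower, against 27.9% and 11.2% of all genes. After rescaling 3 were called higher and 6 lower, against 18% and 19% of all genes. The median log2 fold change was -0.04 without rescaling. Ppif, the gene of cyclophilin D, was 9.92 to 30.6 TPM in Control and 9.71 to 27.0 TPM in Restored samples, a log2 fold change of -0.01 (adjusted p = 0.986). The phosphate carrier Slc25a3 was 605 to 876 TPM in Control and 878 to 1140.0 TPM in Restored samples and rose by 0.46 (adjusted p = 8.7e-04), so that within the same carrier family it moved opposite to Slc25a5. The mitochondrial creatine kinase Ckmt1 had the largest rise, 2.48 (adjusted p = 4.9e-05), and Gsk3b, a kinase linked to pore regulation, rose by 0.62 (9.9e-04). Of the ATP synthase the ring subunit genes Atp5g1 and Atp5g2 fell by 0.75 and 0.38 on the log2 scale and the alpha subunit gene Atp5a1 by 0.48, with adjusted p of 0.0042, 0.0042 and 0.0022. Another ring subunit gene, Atp5g3, was not called (-0.09, adjusted p = 0.717), nor were several other listed ATP synthase genes.

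For exchange of calcium and other ions at the mitochondrion, 2 of 10 tested genes were called, both higher, and 4 with the block, against 27.9% and 44.1% of all genes called higher. They were Letm2, a paralog of the ion exchanger Letm1 (1.22, adjusted p = 1.6e-04), and Slc8b1, the sodium-calcium exchanger that lets calcium out of the matrix (0.58, 0.0011). For release and entry at the endoplasmic reticulum 7 of 22 tested genes were called higher and 2 lower, against 27.9% and 11.2% of all genes. After rescaling 5 were called higher and 4 lower, against 18% and 19% of all genes. Orai2, a store-operated calcium channel, was 24 to 75.3 TPM in Control and 116 to 212 TPM in Restored samples (1.80, adjusted p = 5.0e-05). Its sensor Stim1 rose by 1.11 (8.9e-07) and the release channel Itpr2 by 1.06 (0.018), while Orai3 fell by 0.40 (0.0045).

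Genes of the mitochondrial import machinery were called in 1 direction only. Of 26 tested, 8 were called lower and 0 higher, against 11.2% and 27.9% of all genes. With the block 16 were called lower and 0 higher, against 19.3% and 44.1%. The median was -0.22, and 0.17 over all genes. The largest were Tomm5, a small subunit of the outer membrane import pore (-0.88, adjusted p = 3.5e-04), and the intermembrane chaperones Timm8a1 (-0.64, 5.1e-04) and Timm9 (-0.61, 3.8e-04). Among 18 tested genes of mitochondrial biogenesis and the matrix 3 were called in each direction, against 27.9% of all genes higher and 11.2% lower. After rescaling 2 were called higher and 4 lower, against 18% and 19% of all genes. Esrra (1.26, 1.3e-05), Ppargc1a (0.84, 0.012) and Tfam (0.26, 0.048), which act in transcription of mitochondrial genes, were higher, and the chaperone Hspd1 (-0.66, 7.0e-04), the chaperone Trap1 (-0.45, 0.019) and citrate synthase Cs (-0.20, 0.038) were lower. Of 7 tested partners of Tspo 1 was called higher and 2 lower, against 27.9% and 11.2% of all genes. After rescaling these counts were 1 and 4, against 18% and 19% of all genes. Dbi, whose protein is a ligand of TSPO, fell by 0.78 (0.0070) and Fdx1, an electron donor in steroid synthesis, by 0.37 (0.044), whereas Star, a cholesterol carrier listed at only 1.09 to 3.61 TPM, rose by 0.49 (0.0017).

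**Figure D5:**
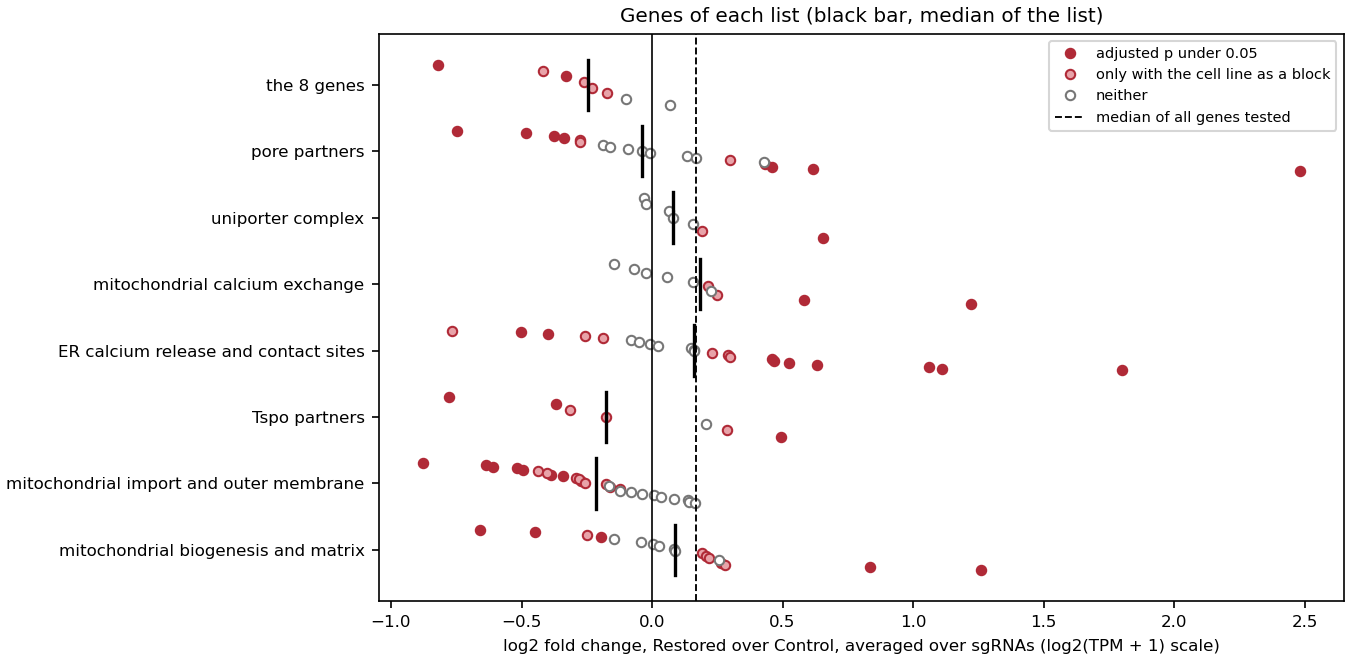
Log2 fold change, Restored over Control averaged over sgRNAs, of each tested gene in 8 sets; dark points were called without a block, pale points only with it, open points in neither fit, and black bars are set medians. The 8 genes have a median of -0.24 and the import genes of -0.22, to the left of the dashed line at 0.17, the median of all genes tested.

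The genes with the most similar patterns over the 18 samples were found by Pearson correlation of log2(TPM + 1), as a description. For Slc25a5 these were Gins1, Hsd17b14 and Shcbp1 (r = 0.97 for each). For Slc25a4 they were Tk1, Ptms and Nol7 (0.95, 0.94 and 0.93), for Tspo Ndufs8, Cox14 and Hsd17b10 (0.95, 0.95 and 0.94), and for Mcu Slc25a1, Elovl5 and Hs3st1 (0.93, 0.91 and 0.88). Gins1 and Tk1 serve DNA replication, and Ndufs8 and Cox14 serve the respiratory chain. For Micu2 they were Bmyc, Kdm5d and Uty (0.97, 0.96 and 0.96), of which Kdm5d and Uty lie on the Y chromosome. For Vdac1 they were Fancf, Ckap4 and Bcl3 (0.82, 0.79 and 0.76), for Vdac2 Papss2, Nostrin and Ceacam1 (0.95 for each), and for Vdac3 Arhgdig, Rplp1 and Cyp51 (0.89, 0.88 and 0.88). The samples share 3 cell lines and 2 states, so these coefficients carry both. Among the 8 genes the highest coefficient was that of Slc25a4 with Slc25a5 (0.83) and the lowest that of Tspo with Micu2 (-0.79).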

How the data were processed

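The authors deposited expression as TPM for 25239 genes, and each column sums to 1000000. The submitters' processing notes name bcl2fastq 2.17, HISAT2, mm10 and GRCm39. Which aligner and genome served these samples, the counter and the annotation are not given in the sources used here, nor is the treatment of reads shared with the annotated pseudogenes Slc25a5-ps and Vdac3-ps1. TPM hold no read total, so depth is unknown and no counting interval was computed.

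From the deposited TPM, log2(TPM + 1) was fitted for the 12828 genes that reached 1 TPM in 3 or more samples, with limma 3.58.1 (R 4.3.3), with 1 mean per group over all 18 samples. Fold changes on this scale understate the change of low genes. A gene was called at a Benjamini-Hochberg adjusted p under 0.05 over all genes tested. The labels name the cell line, which pairs the samples. Deviations from the group means of samples of the same line had a mean correlation across genes of 0.73 (lowest 0.58, 45 pairs). For different lines and groups it was -0.36, a negative value that follows from subtracting the group means. A second fit, with cell line as block, is therefore given beside the one without. Without it, samples of a line count as separate. With it, the sgRNA populations of a line still count as separate pairs, although the averaged change rests on 3 lines. P-values measure the spread between these samples, not between independent lines.

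The 8 genes, the gene lists and the tests were chosen with earlier results of these data known. Named were the 8 genes, Trp53, Ppia, Cdkn1a and Mdm2, Ppif, Slc25a3, the uniporter complex, and from each other list up to 3 called genes per direction with the largest change that moved alike in all 9 pairs, and the 3 genes most correlated with each of the 8. Some genes that this rule names are not reported here. Mdm2 had an averaged log2 fold change of 3.99. Ratios were tested with exact tests (scipy 1.17.1, Python 3.11.15). Motifs were searched in RefSeq promoter windows. The fit without a block was tested on simulated data for restoration with sgBgal. Those data had independent samples with no line effect, and changes larger than those of the 8 genes. The fit with the block was not part of that simulation. Other settings tried were median-of-ratios rescaling, a pseudocount of 0.1, no filter, a filter of 5 TPM in 6 or more samples, the block, only the groups compared, eBayes with trend and robust, an added log2 fold change of at least 1, and leaving out each line.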

Additional observations from a re-analysis of the deposited data

How the results depend on the processing

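With 3 cell lines and no read totals, the averaged change of Vdac1 without a block was known only to within -0.27 to 0.07 (95% interval). This interval does not cover the choice of scaling, as median-of-ratios rescaling gave -0.30 (limma, adjusted p = 0.015). Over 14 alternatives, 28 of the 32 restoration values of the 8 genes kept their sign, the 4 exceptions being those of Micu2. With cell line as the replicate block, the genes called of the 8 went from 0 to 3, 3 and 1 with sgBgal, sgPpia#3.2 and sgPpia#4.1 and from 2 to 6 averaged over sgRNAs, while the share of all genes called, in either direction, went from 13.8, 10 and 10.3% to 42.1, 34.1 and 35.1% and from 39.1 to 63.4%. Every call of the 8 genes for restoration, in any setting, was lower in Restored cells. The called genes rose from 1 to 2 in the uniporter complex, from 2 to 4 in calcium exchange, from 9 to 15 at the endoplasmic reticulum, from 3 to 6 among Tspo partners, from 8 to 16 in import and from 6 to 11 in biogenesis. The block changed no call of the Ppia sgRNA comparisons or interactions among the 8 genes. Median-of-ratios rescaling gave 1 of the 8 with sgBgal (Mcu), beside 13.1% of all genes (6.64% lower). Averaged it gave 7 of the 8, 0 in the uniporter complex, 5 Tspo partners and 14 import genes, beside 37% of all genes (19% lower). With block and rescaling together 7, 5 and 5 of the 8 were called by sgRNA and 7 averaged, with 2 uniporter, 5 exchange, 15 endoplasmic reticulum, 5 Tspo partner and 22 import genes, beside 38.6, 32.2 and 33.3% of all genes by sgRNA and 61.4% averaged (31.1% lower). A pseudocount of 0.1 or no filter left 1 of the 8 averaged (Mcu), and no filter gave 10 biogenesis genes, beside 38.8 and 23.1% of all genes. A log2 fold change of at least 1 left 0 of the 8 averaged, 1 pore partner, 0 uniporter, 1 exchange, 3 endoplasmic reticulum, 0 Tspo partner, 0 import and 1 biogenesis gene, beside 8.93% of all genes. Leaving out 1 line gave 0 to 1 of the 8 averaged (0 without 4711-18), 5 to 7 pore partners, 0 to 1 uniporter, 5 to 9 endoplasmic reticulum, 1 to 2 Tspo partner, 5 to 8 import and 3 to 4 biogenesis genes, in fits with fewer samples that called 24.6 to 30.7% of all genes averaged (6.68 to 8.99% lower). Without the sgPpia#3.2 Control library of 4711-18, chosen after seeing the data and leaving 2 lines against 3 in its group, 3 of the 8 were called averaged and 2 uniporter genes, beside 40.7% of all genes. With the block as well 3, 2 and 1 were called by sgRNA and 6 averaged, with 14 pore partners, 2 uniporter, 4 exchange, 17 endoplasmic reticulum, 7 Tspo partner, 15 import and 12 biogenesis genes, beside 44.4, 31.5 and 37.4% of all genes by sgRNA and 63.8% averaged (19.4% lower). Values that were not called also changed sign. With rescaling, with or without the block, the log2 values became Micu2 -0.14 for restoration with sgBgal, Micu2 -0.084 for restoration with sgPpia#3.2, Micu2 -0.15 for restoration with sgPpia#4.1, Micu2 -0.13 for restoration averaged over sgRNAs, Slc25a4 0.063, Vdac2 0.028 and Mcu 0.066 for sgPpia#3.2 in Control cells, Slc25a5 0.10, Vdac3 0.063 and Micu2 0.036 for sgPpia#3.2 in Restored cells, Vdac2 0.019 for sgPpia#4.1 in Control cells, Slc25a5 0.070 for sgPpia#4.1 in Restored cells, Vdac1 0.0049 for the interaction of sgPpia#3.2, Vdac3 0.024 for the interaction of sgPpia#4.1. Leaving out 1 line or that library gave sign changes within these ranges. For restoration with sgBgal they were Micu2 -0.0070 to 0.12. For restoration with sgPpia#4.1 they were Micu2 -0.042 to 0.11. For sgPpia#3.2 in Control cells they were Slc25a4 -0.18 to 0.18, Slc25a5 -0.53 to 0.017 and Mcu -0.11 to 0.032. For sgPpia#3.2 in Restored cells they were Slc25a5 -0.13 to 0.078, Vdac2 -0.035 to 0.090, Vdac3 -0.10 to 0.0099, Mcu -0.066 to 0.10 and Micu2 -0.15 to 0.031. For sgPpia#4.1 in Control cells they were Vdac1 -0.0095 to 0.17 and Mcu -0.069 to 0.21. For sgPpia#4.1 in Restored cells they were Slc25a5 -0.12 to 0.069 and Vdac3 -0.022 to 0.068. For the interaction of sgPpia#3.2 they were Slc25a4 -0.13 to 0.37, Slc25a5 -0.039 to 0.61, Vdac1 -0.050 to 0.055, Vdac2 -0.012 to 0.17, Tspo -0.068 to 0.13, Mcu -0.024 to 0.17 and Micu2 -0.079 to 0.14. For the interaction of sgPpia#4.1 they were Vdac3 -0.046 to 0.012, Mcu -0.075 to 0.096 and Micu2 -0.17 to 0.12. With the block and without that library, Slc25a4 was 0.094 for sgPpia#3.2 in Control cells and Micu2 -0.0034 for the interaction of sgPpia#3.2. Apart from what the settings themselves change, the cause of these differences was not tested.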
